A study of Mus musculus with 15 samples.

Results

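The genes described here are 38 genes known to be stimulated by type I interferon, taken by symbol from a table of expected read counts. All 38 were found among the 24054 genes listed, and all 38 were among the 15905 genes tested. RNA was sequenced from whole lungs of 15 wild-type female Balb mice in 3 groups of 5. Animals of the saline group had a sham sensitisation with saline plus isotype control antibody. Those of the OVA group were sensitised by intraperitoneal ovalbumin (OVA), challenged with nebulised OVA and likewise treated with isotype control. The anti-IL-4Ra group had the same OVA regimen with 30 mg/kg of a monoclonal antibody that binds mouse IL-4Ra, a receptor subunit used by both IL-4 and IL-13, the cytokines that drive allergic airway inflammation. Every animal thus received an antibody. The sources used here do not give the age of the mice, the isotype control dose or the times of dosing and collection.

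Type I interferons signal through the receptor IFNAR1/IFNAR2 and the kinases JAK1 and TYK2 to a complex that includes STAT2 and IRF9 and binds the interferon-stimulated response element in the promoters of its targets. The targets include sensors of viral RNA, enzymes and binding proteins that block viral replication, the ubiquitin-like protein ISG15, and the transcription factor IRF7, which amplifies interferon production. In lung they are expressed at a resting level by many cell types, among them endothelial cells, macrophages and monocytes, and several also respond to interferon-gamma.

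The members were listed as genes known to be stimulated by type I interferon, so matches to this element are not independent of that choice. Promoter stretches are shown for members lower with OVA, or higher with anti-IL-4Ra, than with saline. Only those with the core of the element before the start of the gene are included. Promoter windows of 300 bases, 250 before and 50 after the annotated start, came from RefSeq on build GRCm38.p6, the C57BL/6J reference and not the Balb genome. A window was held for 29 of the 38 members. The core searched, on both strands, was a pair of GAAA half-sites with any 2 bases between them. It was present in 13 of 29 members (44.8%), against 1079 of the 27025 genes of the promoter table (3.99%) and 452 of 11714 genes tested here (3.86%). With the spacer 1 base longer, at 3 bases, 7 of 29 members (24.1%) and 3.17% of the 27025 genes had a match. The core was found in 5 of the 12 members with a window that were lower with OVA (41.7%) and in 8 of the other 17 (47.1%). It was also found in 5 of the 6 members with a window that were higher with anti-IL-4Ra than with saline (83.3%). With the longer spacer a match was found in 4 of the 12 (33.3%), 3 of the other 17 (17.6%) and 0 of the 6. These are matches of letters, and binding was not measured. The stretches lie before the start site and are written 5′ to 3′ along the strand of the gene, with the matches in capitals. The first 4 belong to members that were lower with OVA than with saline, and the other 5 to members that were higher with anti-IL-4Ra than with saline.
Ifit1: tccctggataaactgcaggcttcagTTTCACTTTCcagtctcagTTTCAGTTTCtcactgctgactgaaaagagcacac
Ifit3: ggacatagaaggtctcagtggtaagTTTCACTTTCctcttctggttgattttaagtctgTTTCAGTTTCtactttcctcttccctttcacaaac
Rsad2: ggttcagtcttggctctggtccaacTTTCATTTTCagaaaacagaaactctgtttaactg
Bst2: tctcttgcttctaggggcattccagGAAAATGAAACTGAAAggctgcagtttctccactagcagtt
Stat2: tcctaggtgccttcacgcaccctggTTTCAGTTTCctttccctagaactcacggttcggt
Oas1a: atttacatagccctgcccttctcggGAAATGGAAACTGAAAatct
Oas1g: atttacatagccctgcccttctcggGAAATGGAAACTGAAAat
Isg15: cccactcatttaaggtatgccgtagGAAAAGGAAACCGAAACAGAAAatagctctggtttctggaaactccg
Trim30a: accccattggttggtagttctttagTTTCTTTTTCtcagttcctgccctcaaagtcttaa
The stretches are Ifit1 at chr19:34640760-34640838 on the plus strand, Ifit3 at chr19:34583348-34583441 on the plus strand, Rsad2 at chr12:26456538-26456597 on the minus strand, and Bst2 at chr8:71537562-71537627 on the minus strand. The others are Stat2 at chr10:128270251-128270310 on the plus strand, Oas1a at chr5:120907526-120907570 on the minus strand, Oas1g at chr5:120887614-120887656 on the minus strand, Isg15 at chr4:156200850-156200921 on the minus strand, and Trim30a at chr7:104465195-104465254 on the minus strand. The stretch of Isg15 held 3 overlapping matches and that of Bst2 held 2 overlapping ones, while Ifit1 and Ifit3 each had 2 separate matches. Oas1a and Oas1g, neighbouring copies of one ancestral gene, shared the same run of letters around 2 overlapping matches.

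The 5 saline libraries held 16774300 to 27570700 expected counts. There were 10042800 to 14706100 in the OVA libraries and 12317800 to 16914500 in those of the anti-IL-4Ra group. No member was at 0 in any library, and the lowest member count was 43. Rn45s, which encodes the ribosomal RNA precursor, took 1.75 ± 0.682% of counts with saline, 7.14 ± 3.36% with OVA and 7.34 ± 4.69% with anti-IL-4Ra (SD, n = 5). The 2-sided exact permutation p, adjusted over 3 comparisons, was 0.0238 for OVA against saline, 0.952 for anti-IL-4Ra against OVA and 0.0476 for anti-IL-4Ra against saline. The smallest unadjusted p that 5 against 5 libraries allow is 0.00794. Markers of alveolar type 1 and type 2 cells summed to 3371 CPM in the lowest library and 14257 CPM in the highest, so every library held abundant lung epithelial transcripts. CPM are counts scaled to the library total after TMM scaling. They are not scaled for transcript length, so levels are compared here between libraries and not between genes.

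With OVA, 13 of the 38 members fell and 1 rose against saline. The 13 are Irf9, Irf7, Ifih1, Oasl2, Ifit1, Ifit2, Ifit3, Rsad2, Cmpk2, Bst2, Ifi44, Rtp4 and Xaf1, and the gene that rose is Mx1. Calls were made where the adjusted p was under 0.05 in edgeR's quasi-likelihood test with Benjamini-Hochberg adjustment over all 15905 genes, and every adjusted p of a gene below is from that test unless another tool is named. Sizes of rises and falls are log2 fold changes with their standard error (SE). The 13 lower members are 34.2% of the 38, where 17.8% of all genes tested were lower, and the 1 higher member is 2.63%, where 19.3% of all genes were higher. In 11 members every OVA library lay below every saline library (28.9% against 14.5% of all genes), and in 1, Mx1, every OVA library lay above (against 12.1%). Before adjustment, 15 members were lower at a p under 0.05 (39.5%, against 22.4% of all genes) and 1 was higher (against 24.3%). Only 3 calls, those of Ifit2, Rsad2 and Mx1, reached 2-fold. The log2 fold changes of the 38 ran from -1.02 to 1.59 with a median of -0.17, beside 0.02 over all genes tested. The 24 members not called lay between -0.60 and 0.17 with a median of -0.05. In whole lung, fewer cells of a type and less RNA per cell cannot be told apart.

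The fall of the 13 went along with changes in markers of cell types and in Rn45s. Of 8 endothelial markers 7 fell with OVA, and their summed level was 3598 to 4879 CPM with saline and 1483 to 2876 CPM with OVA. Of 7 monocyte markers 4 fell, from a summed 1315 to 1880 CPM to 473 to 924 CPM. Of 6 natural killer cell markers tested 4 fell (50.9 to 92.7 CPM against 26.9 to 49.1 CPM), and the remaining marker, Klra8, was at 0 in all groups. All 6 markers of alveolar type 1 and type 2 cells and 3 of 4 of club and ciliated cells fell. Neutrophil markers fell for 5 of 7 and rose for 1, and their summed levels overlapped (171 to 369 CPM with saline, 175 to 227 CPM with OVA). Alveolar macrophage markers fell for 3 of 7 and rose for 2. Their summed level was higher with OVA (1303 to 4631 CPM) than with saline (401 to 1272 CPM). Markers of plasmacytoid dendritic cells, a main source of type I interferon, rose for 4 of 6 (29.0 to 47.8 CPM against 72.9 to 217 CPM). T cell markers rose for 5 of 6 and B cell markers for 5 of 5, while 0 of 6 cardiac muscle markers were called. With the summed endothelial marker level added to the edgeR fit, 0 members were called lower, but so were only 0.358% of all genes, in place of 17.8%. At an unadjusted p under 0.05, 4 members were lower in that fit (5.5% of all genes were). All 13 still had log2 fold changes below 0 in that fit, from -0.87 to -0.12. With the Rn45s share added instead, 0 members and 1.67% of all genes were called lower, 5 members had an unadjusted p under 0.05 in that direction (13.4% of all genes had), and the 13 were at -0.93 to -0.12. Both measures differ between the groups, so the effect of OVA and theirs cannot be told apart in these fits. The part of the other marker lists was not tested.

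**Figure D1:**
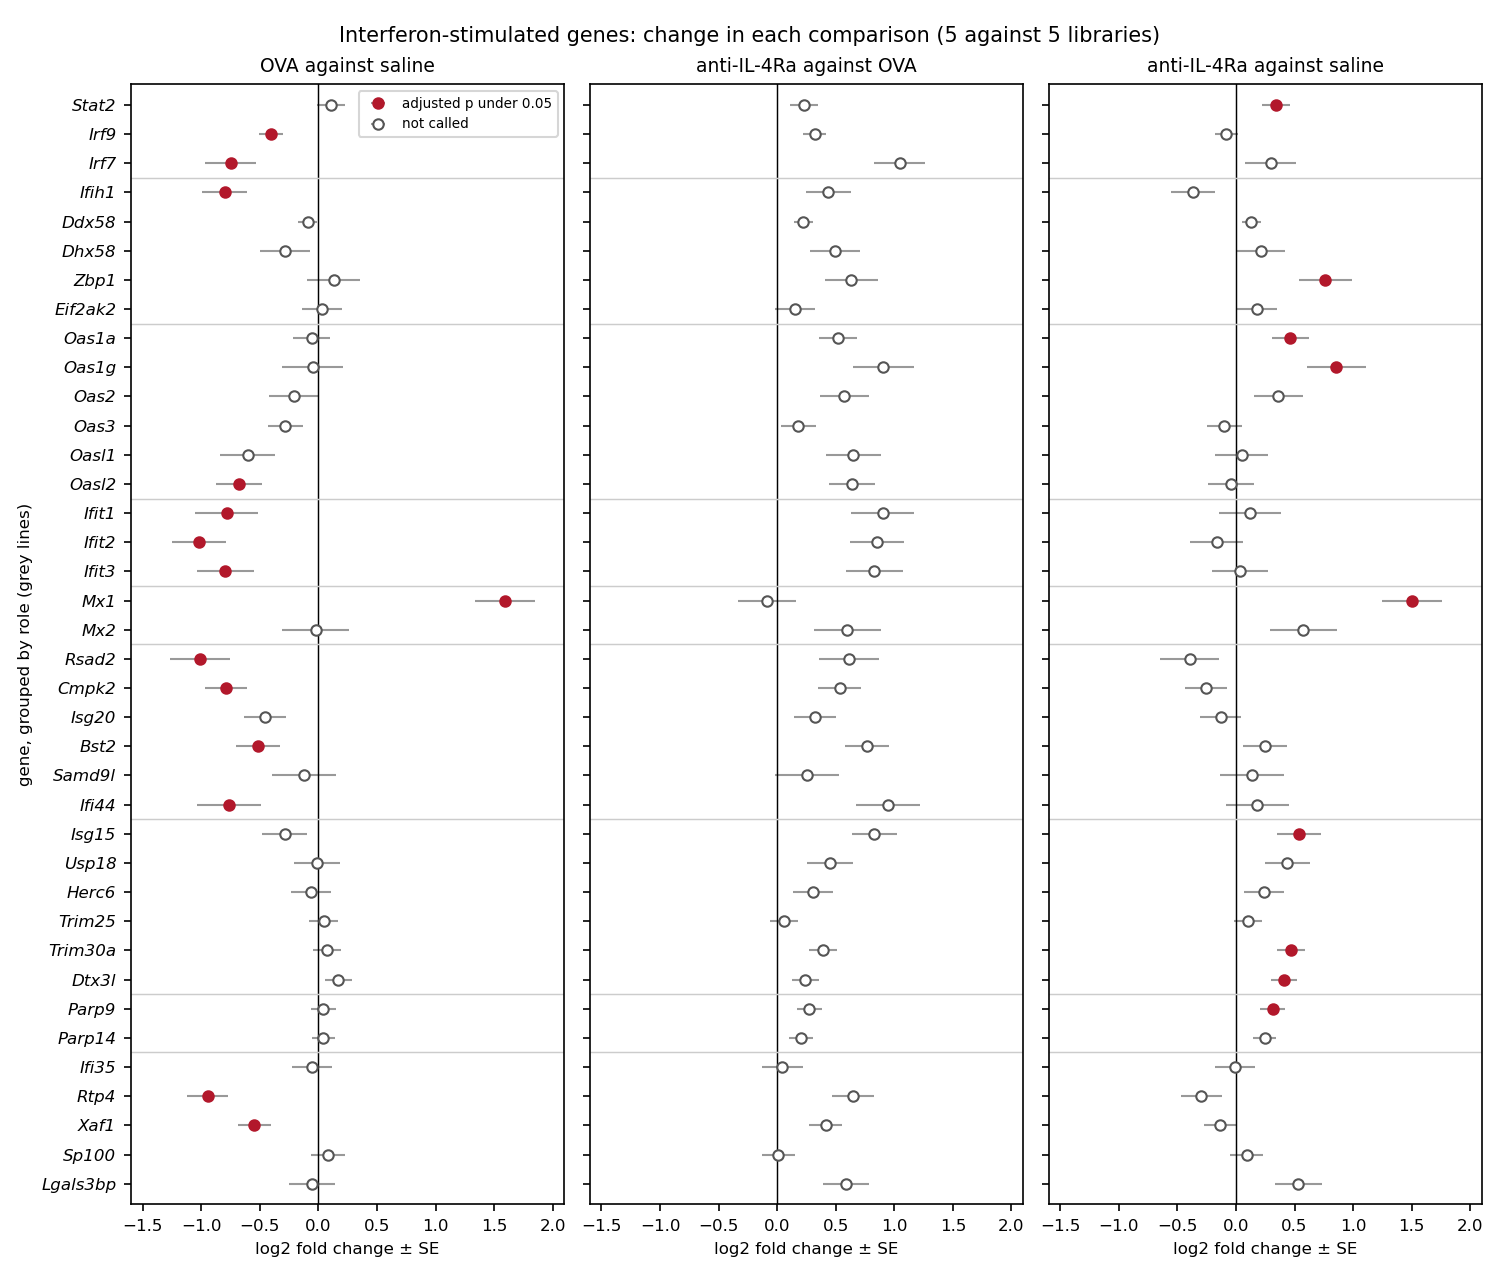
Log2 fold change ± SE of the 38 genes in the 3 comparisons, 5 against 5 libraries each, with filled points at an adjusted p under 0.05 (edgeR) and grey lines between roles. In OVA against saline 13 filled points lie left of 0 and 1, Mx1, lies right, in anti-IL-4Ra against OVA 37 of 38 open points lie right of 0, and in anti-IL-4Ra against saline 9 filled points lie right of 0.

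Between anti-IL-4Ra and OVA, 0 members were called in either direction by edgeR (0.138% of all genes passed as higher and 0.163% as lower). The log2 fold changes nevertheless lay above 0 for 37 of the 38, Mx1 being the exception, where 49.5% of all genes tested lay above 0. Their median was 0.47, from -0.09 to 1.04, beside 0.00 over all genes. At an unadjusted p under 0.05, 26 members were higher (68.4%, against 2.77% of all genes) and 0 were lower (against 2.91%). The 38 were measured in the same libraries and listed as targets of a shared pathway, with earlier results of these data known. Counts of members, here and in the other comparisons, are therefore not counts of independent observations. The smallest adjusted p was 0.0667, for Irf7. DESeq2 called 3 members higher (0.346% of all genes), which were Irf7 (1.05 ± 0.23, adjusted p = 0.00221), Isg15 (0.84 ± 0.20, adjusted p = 0.00631) and Bst2 (0.77 ± 0.20, adjusted p = 0.0241), and limma-voom called 0. Neither called a member lower. Every anti-IL-4Ra library lay above every OVA library for 3 members, Irf9, Ddx58 and Bst2 (7.89%, against 0.509% of all genes), and below for 0 (against 0.66%). Without anti-IL-4Ra replicate 2, edgeR called Irf7 (1.21 ± 0.19, adjusted p = 0.00734), Bst2 and Oas1g (adjusted p = 0.0483 for each). Without replicate 1 it called Isg15 (adjusted p = 0.0401), and without replicate 4 it called Ifit2 (adjusted p = 0.0402). Of the marker lists, only Cx3cr1, a marker of non-classical monocytes and 1 of 7 monocyte markers, was called higher with anti-IL-4Ra than with OVA, and no marker was called lower. At an unadjusted p under 0.05, 5 of 6 cardiac muscle markers differed (median log2 fold change -2.05, from -2.21 to -1.37). So did 5 of 7 neutrophil markers and 3 of 7 alveolar macrophage markers, where 2.77% of all genes were higher and 2.91% lower. The latter lists each held values on both sides of 0, from -0.84 to 1.29 (median 0.68) and from -1.27 to 1.73 (median 0.44). The summed level of the cardiac markers was 83.9 to 1525 CPM with OVA and 12.2 to 381 CPM with anti-IL-4Ra, and that of the alveolar macrophage markers 1303 to 4631 CPM and 690.2 to 2960 CPM. Endothelial markers summed to 1407 to 3291 CPM with anti-IL-4Ra, monocyte markers to 546 to 1140 CPM and plasmacytoid dendritic cell markers to 53.3 to 159 CPM. Their part in the member values of this comparison was not tested beyond the fits with Rn45s and endothelial markers, in which 27 and 26 members were higher at an unadjusted p under 0.05 (3.02% and 4.86% of all genes were).

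Against saline, 9 members rose with anti-IL-4Ra and 0 fell (edgeR). They are Stat2, Zbp1, Oas1a, Oas1g, Mx1, Isg15, Trim30a, Dtx3l and Parp9, which make 23.7% of the 38, where 13.9% of all genes tested rose and 12.7% fell. Before adjustment, 12 members were higher at a p under 0.05 (20.5% of all genes were) and 0 lower (19.1% were), and limma-voom and DESeq2 also called 0 lower. DESeq2 called 11 higher (14.9% of all genes), which were the 9 together with Parp14 and Lgals3bp. The groups were separate for 2 members, Mx1 and Trim30a, both higher (5.26%, against 9.54% of all genes), and for 0 lower (against 10.3%). The median log2 fold change was 0.18, from -0.39 to 1.51, beside 0.02 over all genes, and the 29 members not called lay between -0.39 and 0.58 with a median of 0.10. This comparison and that of OVA with saline share the saline libraries. None of the 13 members that fell with OVA was among the 9. A high level in the saline libraries favours the first call and works against the second, so little overlap was possible from the outset. The 9 were 3 without saline replicate 5 (10.1% of all genes were called higher in that fit) or anti-IL-4Ra replicate 1 (9.85%). They were 4 without saline replicate 2 (10.8%) or anti-IL-4Ra replicate 3 (9.97%). Without anti-IL-4Ra replicate 4 (12.4%) or 5 (15.4%) they were 5. Without anti-IL-4Ra replicate 5, 4 members were called lower than saline (13.9% of all genes were in that fit), namely Ifih1 (-0.59 ± 0.15, adjusted p = 0.0101), Ifit2 (-0.49 ± 0.15, adjusted p = 0.0271), Rtp4 (-0.47 ± 0.15, adjusted p = 0.0342) and Cmpk2 (-0.46 ± 0.15, adjusted p = 0.031). With the Rn45s share or the endothelial marker level in the fit, 0 members were called higher, where 2.02% and 1.01% of all genes were. At an unadjusted p under 0.05, 8 and 2 members were higher (9.14% and 6.24% of all genes), and the 9 were at 0.18 to 1.24 and at 0.06 to 1.03. Endothelial markers were lower than with saline for 7 of 8, monocyte markers for 3 of 7 and alveolar type 1 and type 2 markers for 5 of 6. T cell markers were higher for 5 of 6, B cell markers for 3 of 5 and plasmacytoid dendritic cell markers for 4 of 6, with 1 lower. The part of these lists other than the endothelial one was not tested.

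Among the 3 transcription factors, Irf7 and Irf9 fell with OVA (17.8% of all genes did) and Stat2 did not pass the test. Irf7, singled out after its values were seen, was at 41.9, 40.4, 43.7, 45.9 and 36.9 CPM with saline, 21.4, 23.5, 31.6, 16.2 and 31.9 CPM with OVA and 52.0, 28.1, 43.2, 68.2 and 65.1 CPM with anti-IL-4Ra, in replicates 1 to 5 of each group. Every OVA library lay below every saline library, whereas the anti-IL-4Ra libraries reached from below the saline group (replicate 2) to above it (replicates 1, 4 and 5). Its mean levels were 41.8 ± 3.40, 24.9 ± 6.77 and 51.3 ± 16.4 CPM in that order (SD, n = 5). Its log2 fold change was -0.75 ± 0.22 (adjusted p = 0.0146) with OVA against saline. Against OVA it was 1.04 ± 0.22 (adjusted p = 0.0667) with anti-IL-4Ra, and against saline 0.30 ± 0.22 (adjusted p = 0.321). Irf9, the DNA-binding subunit of the complex with STAT2, fell with OVA by 0.40 ± 0.10 (adjusted p = 0.00561). Its 5 OVA libraries, 43.5, 47.1, 42.1, 39.7 and 41.8 CPM, lay below the 53.2 CPM of the lowest saline library and below the 47.2 CPM of the lowest anti-IL-4Ra library. Stat2 rose in anti-IL-4Ra against saline, by 0.34 ± 0.12 (adjusted p = 0.0471), a call that was lost in 10 of the 15 fits that left out 1 library (adjusted p of up to 0.116), and its value with OVA against saline was 0.11.

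The 5 sensors of nucleic acid had log2 fold changes of -0.80 to 0.13, median -0.09, with OVA against saline. Ifih1, which encodes the double-stranded RNA sensor MDA5, was at 91.8, 98.0, 70.1, 81.2 and 88.3 CPM with saline, 49.2, 42.7, 54.7, 60.6 and 39.0 CPM with OVA and 62.1, 67.0, 53.8, 46.1 and 104 CPM with anti-IL-4Ra. All 5 OVA libraries were below all 5 saline libraries, and anti-IL-4Ra replicate 5 alone was above the saline group. Ifih1 fell with OVA by 0.80 ± 0.19 (adjusted p = 0.00423), a 1.74-fold lower mean, and its value with anti-IL-4Ra against saline was -0.36 ± 0.19 (adjusted p = 0.162), which was above 0 in both covariate fits (0.12 with the Rn45s share and 0.13 with endothelial markers). The related RNA sensors Ddx58 (RIG-I) and Dhx58 (LGP2) were not called, at -0.09 and -0.29 with OVA against saline. Ddx58 is 1 of the 3 members in which the anti-IL-4Ra libraries (104, 99.4, 106, 113 and 127 CPM) all exceeded the OVA libraries (93.4, 97.8, 90.9, 93.0 and 94.8 CPM). Zbp1, a sensor of Z-form nucleic acid that can trigger cell death, was at 15.2, 13.9, 16.7, 22.2 and 11.5 CPM with saline, 15.9, 24.4, 18.2, 12.5 and 16.2 CPM with OVA and 28.2, 15.3, 27.0, 36.2 and 28.2 CPM with anti-IL-4Ra. Anti-IL-4Ra replicates 1, 3, 4 and 5 lay above all saline and OVA libraries, and replicate 2 lay within them. Zbp1 rose with anti-IL-4Ra against saline by 0.76 ± 0.23 (adjusted p = 0.0214), a call lost in 4 of the 15 fits without 1 library (adjusted p of up to 0.0596). Eif2ak2, the kinase PKR that halts translation, was not called in any comparison (0.03, 0.15 and 0.18).

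The 6 oligoadenylate synthetase genes encode enzymes and related proteins, the active ones of which make the messenger that switches on RNase L. Oas1a was at 20.8, 19.7, 17.0, 17.5 and 16.4 CPM with saline, 14.0, 15.8, 21.9, 16.2 and 19.99 CPM with OVA and 25.6, 17.1, 25.3, 30.9 and 27.0 CPM with anti-IL-4Ra. Saline and OVA libraries overlapped, and anti-IL-4Ra replicates 1, 3, 4 and 5 were above both groups. Oas1g was at 5.04, 5.19, 4.69, 5.88 and 3.05 CPM with saline, 3.86, 4.38, 6.82, 3.49 and 4.51 CPM with OVA and 9.08, 4.13, 9.45, 10.1 and 10.6 CPM with anti-IL-4Ra. It had the same arrangement, with anti-IL-4Ra replicate 2 again inside the range of the other groups. With anti-IL-4Ra against saline Oas1a rose by 0.46 ± 0.16 (adjusted p = 0.0404) and Oas1g by 0.86 ± 0.25 (adjusted p = 0.0218), calls lost in 9 and 3 of the 15 fits without 1 library (adjusted p of up to 0.104 and 0.059). Of the distinct 50-base stretches in their GENCODE transcripts, 57.6% of those of Oas1a occur in Oas1g and 45.2% of those of Oas1g in Oas1a, and the counts of both were not whole in any library. Reads may therefore have been split between them, and their values are uncertain as separate measurements. Oasl2, a member of the family, fell with OVA by 0.68 ± 0.20 (adjusted p = 0.0134). Its neighbour Oasl1 was at -0.60 ± 0.23 (adjusted p = 0.0537), although all its OVA libraries lay below all its saline libraries. Oas2 and Oas3 were called in no comparison, at -0.21 and -0.28 with OVA and 0.36 and -0.10 with anti-IL-4Ra against saline.

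All 3 IFIT genes, whose proteins bind viral RNA and limit its translation, fell with OVA (17.8% of all genes did). Ifit2 was at 59.9, 58.9, 47.8, 52.2 and 56.2 CPM with saline, 29.3, 22.6, 27.7, 26.8 and 29.6 CPM with OVA and 43.5, 35.9, 50.2, 27.3 and 88.1 CPM with anti-IL-4Ra. The OVA libraries were all under the lowest saline library by a wide margin, and the anti-IL-4Ra libraries spread from the OVA range (replicate 4) to above the saline range (replicate 5). Mean levels of Ifit2 were 55.0 ± 5.01, 27.2 ± 2.84 and 49.0 ± 23.5 CPM (SD, n = 5), a 2.02-fold lower mean with OVA than with saline, and the log2 fold change was -1.02 ± 0.23 (adjusted p = 0.00315). Ifit3 was at 62.2, 59.5, 48.1, 55.3 and 58.0 CPM with saline, 28.9, 19.9, 46.8, 28 and 39.8 CPM with OVA and 44.8, 49.6, 42.6, 52.2 and 101 CPM with anti-IL-4Ra. OVA replicate 3 came close to the saline group, and anti-IL-4Ra replicate 5 was far above every other library. Ifit3 fell with OVA by 0.79 ± 0.24 (adjusted p = 0.018). Ifit1 fell by 0.78 ± 0.27 (adjusted p = 0.0311), a call that was lost in 5 of the 15 fits that left out 1 library (saline replicate 1 or 2, or OVA replicate 1, 2 or 5), at adjusted p of up to 0.077. With anti-IL-4Ra the 3 genes were at 0.83 to 0.90, median 0.85, against OVA and -0.17 to 0.12, median 0.03, against saline, with none called. Of the 50-base stretches of Ifit3, 51.2% occur in Ifit3b, so its counts may include reads of that copy.

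**Figure D2:**
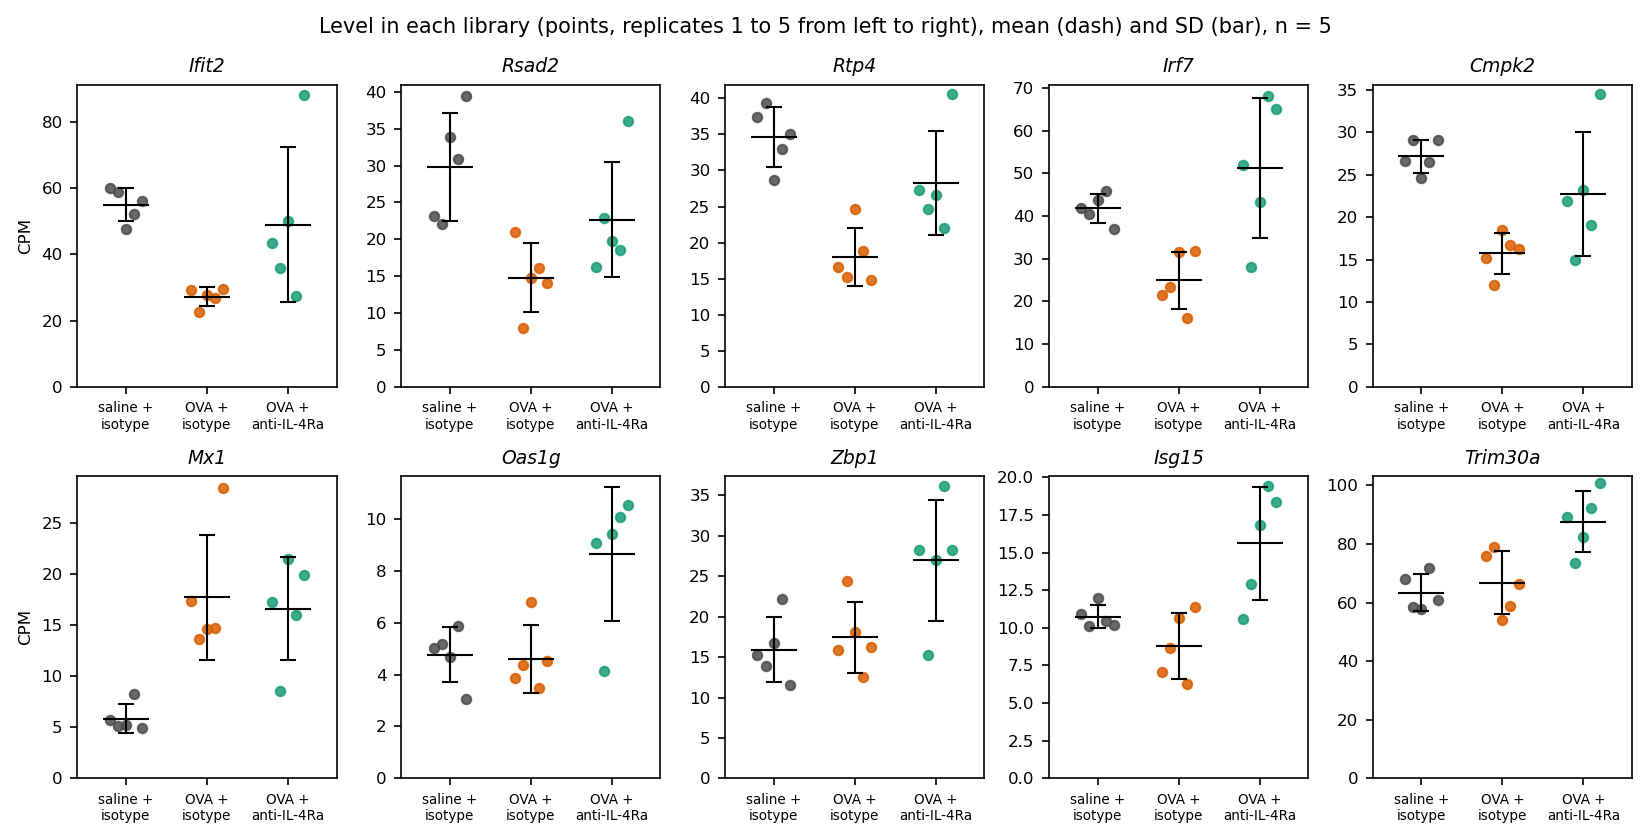
CPM of 10 genes in each library, with points for replicates 1 to 5 from left to right, a dash at the mean and a bar of ± SD (n = 5). In Ifit2, Rsad2, Rtp4, Irf7 and Cmpk2 the OVA libraries lie below the saline libraries, with means of 27.2 against 55.0 CPM for Ifit2, in Mx1 both OVA groups lie above saline, and in Oas1g and Zbp1 4 of 5 anti-IL-4Ra libraries lie above both other groups.

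Of the 2 Mx genes, which encode antiviral GTPases and are defective in many inbred laboratory strains, 1 rose and 1 did not pass the test. Of all genes tested, 19.3% rose with OVA and 13.9% with anti-IL-4Ra against saline. Mx1 was at 5.76, 5.11, 5.25, 8.27 and 4.88 CPM with saline, 17.3, 13.6, 14.6, 14.7 and 28.4 CPM with OVA and 17.3, 8.53, 21.5, 15.9 and 19.9 CPM with anti-IL-4Ra. All OVA libraries, with and without anti-IL-4Ra, were above all saline libraries, though anti-IL-4Ra replicate 2 was only just so. Mean levels of Mx1 were 5.85 ± 1.39, 17.7 ± 6.12 and 16.6 ± 5.01 CPM (SD, n = 5). Mx1 rose by 1.59 ± 0.26 (adjusted p = 0.000366) with OVA, a 3.02-fold higher mean, and by 1.51 ± 0.26 (adjusted p = 0.00092) with anti-IL-4Ra against saline. The value of anti-IL-4Ra against OVA was -0.09 ± 0.25 (adjusted p = 1.00). Mx1 was the only member called higher with OVA, and its rise kept its call with the Rn45s share in the fit (1.27 ± 0.35, adjusted p = 0.0486). With the endothelial marker level it did not (1.19 ± 0.36, adjusted p = 0.11). Mx2 was not called, at -0.02 with OVA against saline, 0.60 with anti-IL-4Ra against OVA and 0.58 with anti-IL-4Ra against saline. The paralogs share 3.86% of the 50-base stretches of Mx1 and 4.38% of those of Mx2.

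Of 6 other antiviral effectors 4 fell with OVA (17.8% of all genes did), and the 6 were at -1.01 to -0.12, median -0.64. Rsad2, which encodes viperin, an enzyme that makes a chain-terminating nucleotide, was at 23.1, 22.1, 33.8, 30.9 and 39.4 CPM with saline, 21.1, 8.01, 14.8, 16.1 and 14.0 CPM with OVA and 16.2, 22.8, 19.8, 18.5 and 36.0 CPM with anti-IL-4Ra. The highest OVA library, replicate 1, was just below the lowest saline library, replicate 2. Rsad2 fell by 1.01 ± 0.26 (adjusted p = 0.00643) with OVA, a 2.01-fold lower mean. Cmpk2, the mitochondrial nucleotide kinase next to it on the chromosome with no protein-coding gene between them, was at 26.7, 29.1, 24.6, 26.5 and 29.1 CPM with saline, 15.2, 12.0, 18.5, 16.7 and 16.2 CPM with OVA and 22, 15, 23.2, 19.1 and 34.5 CPM with anti-IL-4Ra. Saline and OVA were again separate, and the anti-IL-4Ra libraries spanned both. Cmpk2 fell by 0.79 ± 0.18 (adjusted p = 0.00355) with OVA, and its value with anti-IL-4Ra against OVA was 0.53 ± 0.18 (adjusted p = 0.516). Bst2, the membrane protein tetherin that holds budding virions, fell by 0.52 ± 0.19 (adjusted p = 0.0417), and Ifi44 fell by 0.76 ± 0.27 (adjusted p = 0.038). Each of these 2 calls was lost in 6 of the 15 fits that left out 1 library, at adjusted p of up to 0.113 for Bst2 and 0.0902 for Ifi44. For Bst2 the libraries were saline replicate 1, 3 or 5 and OVA replicate 1, 2 or 5, and for Ifi44 saline replicate 1, 2, 4 or 5 and OVA replicate 2 or 5. The exonuclease gene Isg20 was at -0.46 ± 0.18 (adjusted p = 0.0546) and Samd9l, a restriction factor gene, at -0.12.

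None of the 6 ubiquitin-like and ubiquitin ligase genes was called with OVA against saline (-0.29 to 0.17, median 0.02). With anti-IL-4Ra against saline 3 of the 6 rose, where 13.9% of all genes rose. Isg15, the ubiquitin-like protein that is joined to other proteins in the interferon response, was at 10.9, 10.1, 12.0, 10.4 and 10.2 CPM with saline, 7.04, 8.68, 10.7, 6.29 and 11.4 CPM with OVA and 10.6, 12.9, 16.8, 19.4 and 18.3 CPM with anti-IL-4Ra. The OVA libraries overlapped the saline ones, and anti-IL-4Ra replicates 2 to 5 were above both groups. Isg15 was at 0.83 ± 0.19 (adjusted p = 0.107) with anti-IL-4Ra against OVA and rose by 0.54 ± 0.19 (adjusted p = 0.0431) against saline. Its call against saline was lost in 10 of the 15 fits without 1 library, at adjusted p of up to 0.111. Trim30a, a ubiquitin ligase gene known to restrain inflammatory signalling, was at 68.1, 58.6, 57.8, 71.8 and 60.8 CPM with saline, 76.0, 78.8, 54.1, 59.0 and 66.3 CPM with OVA and 89.3, 73.4, 82.3, 92.5 and 101 CPM with anti-IL-4Ra. All anti-IL-4Ra libraries lay above all saline libraries, by a narrow margin for replicate 2. Trim30a rose by 0.47 ± 0.12 (adjusted p = 0.0113) against saline and kept its call in all 15 fits without 1 library, as did Mx1. Dtx3l, a ligase that works as a partner of PARP9, rose by 0.41 ± 0.11 (adjusted p = 0.0148). Usp18, which removes ISG15 from proteins and dampens the receptor, Herc6, the mouse ligase for ISG15, and Trim25, which acts on RIG-I, were not called, at 0.44, 0.24 and 0.10. Trim25 was among the 3 members with the highest mean CPM, at 187, 185, 171, 181 and 178 CPM with saline, 168, 185, 176, 154 and 247 CPM with OVA and 177, 187, 191, 228 and 184 CPM with anti-IL-4Ra. The groups overlapped, and single libraries (OVA replicate 5 and anti-IL-4Ra replicate 4) stood highest.

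Of the 2 PARP genes, whose proteins attach ADP-ribose to targets or act in such complexes, Parp9 rose with anti-IL-4Ra against saline by 0.32 ± 0.11 (adjusted p = 0.04), a call lost in 9 of the 15 fits without 1 library (adjusted p of up to 0.0974). Parp14 was at 0.24 ± 0.10 (adjusted p = 0.0802) in edgeR, and DESeq2 called it (adjusted p = 0.0402). Parp14, the member with the highest mean CPM, was at 245, 248, 223, 251 and 242 CPM with saline, 258, 249, 225, 233 and 280.4 CPM with OVA and 300.5, 247, 286, 268 and 331 CPM with anti-IL-4Ra. Groups overlapped, with anti-IL-4Ra replicates 1, 3 and 5 above every other library. Parp9, Dtx3l and Parp14 lie side by side in the genome, and none was called with OVA against saline. Of the remaining 5 genes, Rtp4 and Xaf1 fell with OVA (17.8% of all genes did). Rtp4, a receptor transporter gene that is induced by interferon, was at 37.5, 39.4, 28.7, 32.9 and 35.0 CPM with saline, 16.6, 15.2, 24.7, 18.8 and 14.8 CPM with OVA and 27.3, 24.6, 26.6, 22.1 and 40.6 CPM with anti-IL-4Ra. Every OVA library was below every saline library, and anti-IL-4Ra replicate 5 alone exceeded the saline group. Rtp4 fell by 0.94 ± 0.18 (adjusted p = 0.000947) with OVA, a 1.92-fold lower mean. Xaf1, a gene linked to cell death, fell by 0.55 ± 0.14 (adjusted p = 0.00742). Lgals3bp, a secreted glycoprotein gene, was at 172, 133, 119, 118 and 128 CPM with saline, 108, 147, 172, 139.7 and 77.7 CPM with OVA and 230.5, 129, 210.2, 216 and 183 CPM with anti-IL-4Ra. With anti-IL-4Ra it was at 0.59 ± 0.20 (adjusted p = 0.508) against OVA and 0.53 ± 0.20 (adjusted p = 0.0576) against saline in edgeR, and DESeq2 called it higher against saline (adjusted p = 0.0471). Anti-IL-4Ra replicates 1, 3, 4 and 5 were above all other libraries. Ifi35 and Sp100 were at -0.05 and 0.08 with OVA.

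Relative spread was widest in the anti-IL-4Ra group. The coefficient of variation over 5 libraries had a median over the 38 genes of 11% with saline, 18.7% with OVA and 26.6% with anti-IL-4Ra. Within the anti-IL-4Ra group, replicate 5 was the highest library for 21 of the 38 members and replicate 4 for 14, while replicate 2 was the lowest for 24 and the highest for 0. The median of the 38 log2 levels, relative to the saline mean, ran from -0.10 to 0.06 in the saline libraries and from -0.40 to -0.14 in the OVA libraries. In the anti-IL-4Ra libraries it was 0.05, -0.18, 0.14, 0.27 and 0.50 in replicates 1 to 5. Over the 13 genes that fell with OVA, a group chosen by its levels in the OVA and saline libraries, the median was -0.30, -0.35, -0.22, -0.37 and 0.35 in replicates 1 to 5, so that only replicate 5 was above the saline mean. Over the other 25 it was 0.23, -0.03, 0.30, 0.48 and 0.53, with replicate 2 alone below the saline mean. The share of counts on Rn45s in the same libraries was 9.80, 3.10, 9.79, 12.4 and 1.65%. Replicate 5 thus had the highest member level and the lowest Rn45s share of its group, and replicate 2 the lowest member level with the next lowest share. The part of Rn45s in these differences was not tested.

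**Figure D3:**
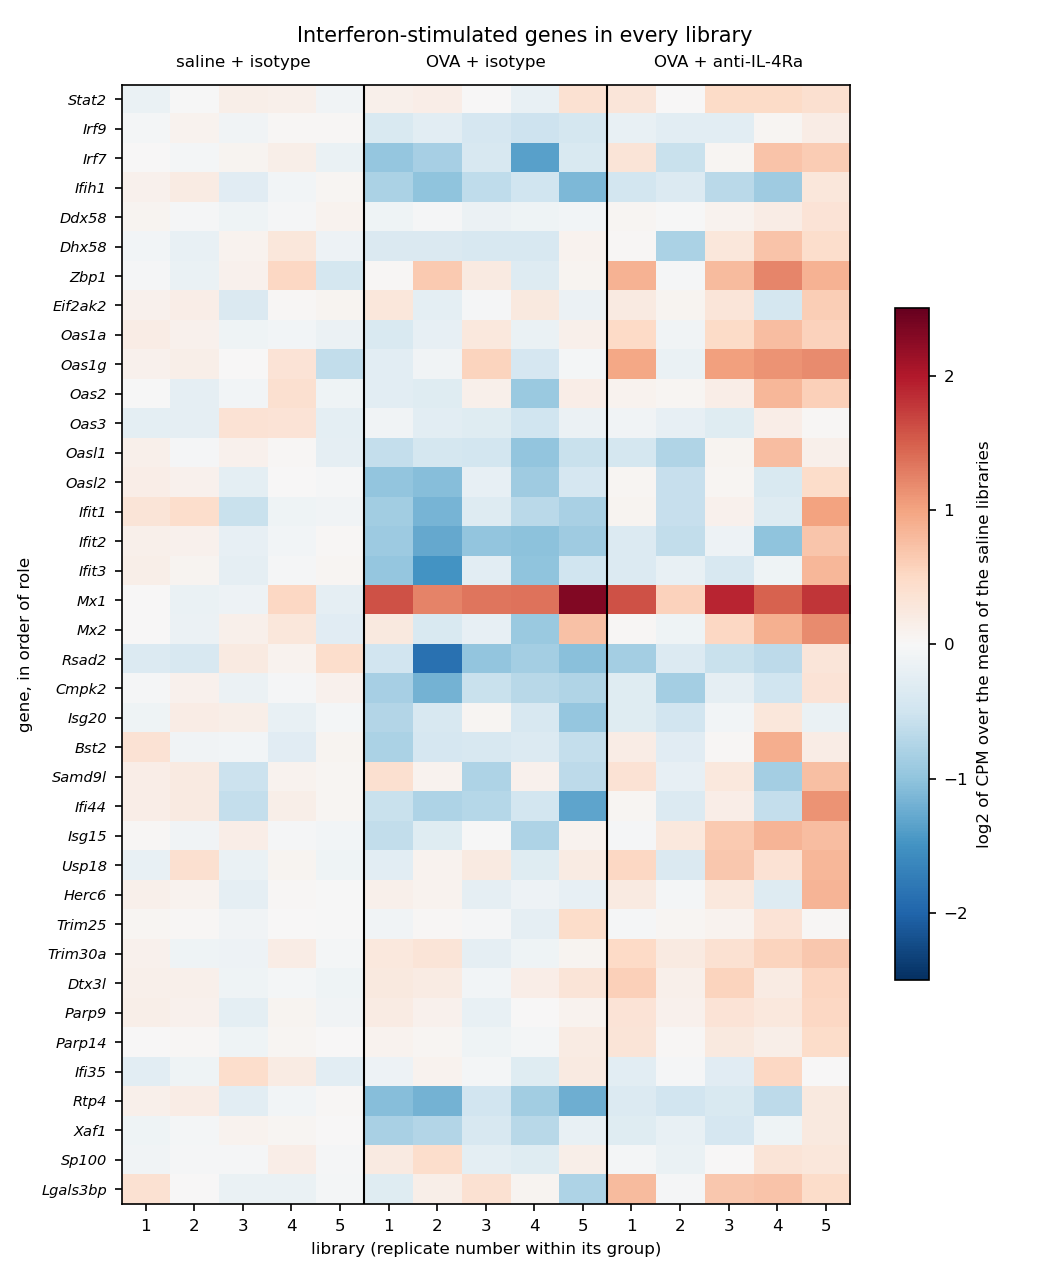
Log2 CPM of each member (rows, by role) in each of the 15 libraries (columns, by group and replicate), relative to the mean of the saline libraries. The OVA libraries have medians of -0.40 to -0.14 over the 38 genes, and within the anti-IL-4Ra group replicate 5 has the highest median (0.50) and replicate 2 the lowest (-0.18).

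**Figure D4:**
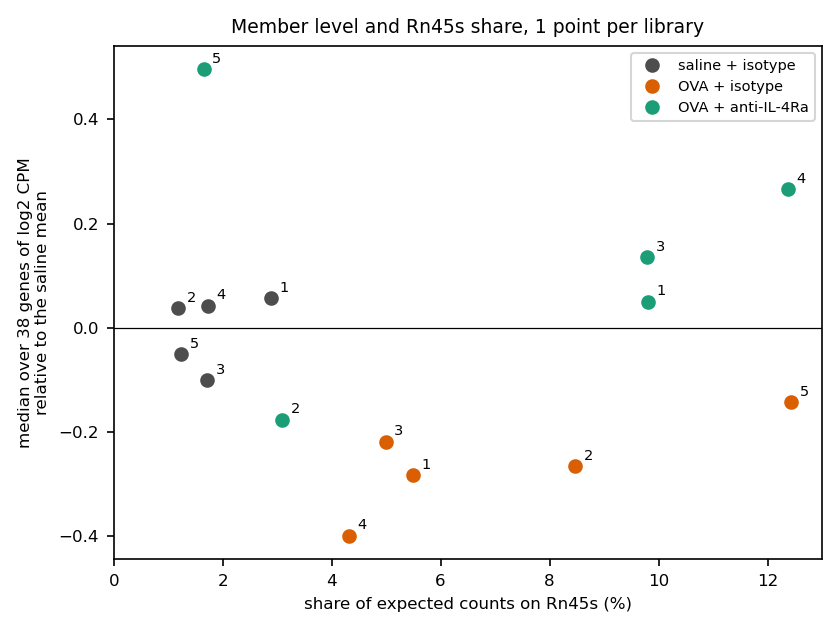
Median over the 38 genes of log2 CPM relative to the saline mean (vertical axis) against the share of expected counts on Rn45s in percent (horizontal axis), 1 point per library numbered by replicate. The 5 OVA libraries lie below 0 at shares of 4.31 to 12.4%, while anti-IL-4Ra replicate 5 lies highest at 1.65%, and replicates 1, 3 and 4 lie above 0 at 9.79 to 12.4%.

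Interferon genes themselves had almost no counts. Of 20 genes for type I and type III interferons only Ifnk, which encodes interferon kappa, passed the filter on low counts. Ifnk summed to 170 counts over the saline libraries, 219 over the OVA and 190 over the anti-IL-4Ra libraries, and rose with OVA by 1.09 ± 0.28 (adjusted p = 0.00774). The other 19 summed to 14.9 counts over all 15 libraries, 12 of them were at 0 in every library, and Ifnb1 had 1 count in all, in the anti-IL-4Ra group. At these totals 0 counts in a library allow up to 3 counts, so expression under that level was not detectable at this depth.

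Of 6 genes for the receptors and kinases, 2 fell and 1 rose with OVA, where 17.8% of all genes fell and 19.3% rose. The receptor subunit Ifnar2 fell by 0.41 ± 0.10 (adjusted p = 0.00475) and Il10rb, a subunit of the type III receptor, by 0.30 ± 0.11 (adjusted p = 0.048). The other type I subunit, Ifnar1, rose by 0.32 ± 0.10 (adjusted p = 0.0219). Ifnar1 and the kinase gene Tyk2 rose with anti-IL-4Ra against saline, by 0.30 ± 0.10 (adjusted p = 0.0395) and 0.56 ± 0.18 (adjusted p = 0.0303), where 13.9% of all genes rose. Of 13 genes that sense nucleic acid or relay its signal upstream of interferon, 6 rose and 1 fell with OVA. Over all genes 19.3% rose and 17.8% fell. The rises included the DNA receptor gene Tlr9 by 1.09 ± 0.32 (adjusted p = 0.0149), Tmem173, which encodes the adaptor STING, by 1.07 ± 0.16 (adjusted p = 0.000234), and the kinase gene Ikbke by 1.01 ± 0.25 (adjusted p = 0.00599). The double-stranded RNA receptor gene Tlr3 fell by 0.82 ± 0.30 (adjusted p = 0.0422). With anti-IL-4Ra against saline, a comparison with the same saline libraries, 6 genes of this list were called higher and 0 lower (13.9% and 12.7% of all genes were). Of 6 inhibitors, 1 rose and 1 fell with OVA, where 19.3% of all genes rose and 17.8% fell. Socs1, a feedback inhibitor of JAK kinases, rose by 1.54 ± 0.27 (adjusted p = 0.000712), and the phosphatase gene Ptpn11 fell by 0.50 ± 0.10 (adjusted p = 0.00188). Against saline, Socs1 and Socs3 rose and Ptpn11 fell with anti-IL-4Ra, by 1.06, 0.51 and 0.44 on the log2 scale. In that comparison 13.9% of all genes rose and 12.7% fell.

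Among 36 other interferon-stimulated genes outside the 38, 10 fell with OVA and 0 rose (edgeR; 17.8% and 19.3% of all genes did). They had a median log2 fold change of -0.13. Ifi27l2a fell by 1.60 ± 0.43 (adjusted p = 0.00959). Ifitm3, which blocks entry of viruses, fell by 1.18 ± 0.22 (adjusted p = 0.000946), its relative Ifitm2 by 1.17 ± 0.27 (adjusted p = 0.00338) and Phf11d by 0.93 ± 0.22 (adjusted p = 0.00402). With anti-IL-4Ra against saline, 2 of the 36 were lower and 0 higher, where 12.7% of all genes were lower and 13.9% higher. The 2 were Ifitm2, by 0.77 ± 0.27 (adjusted p = 0.0431), and Ifitm3, by 0.67 ± 0.22 (adjusted p = 0.0312). With anti-IL-4Ra against OVA, no gene of these 5 lists was called by edgeR. The median of the 36 was 0.27 in that comparison, from -0.08 to 1.26. An unadjusted p under 0.05, in either direction, was found for 11 of them (2.77% of all genes were higher and 2.91% lower at that p).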

How the data were processed

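RNA-seq of whole lung from 15 mice was analysed in 3 groups of 5, grouped by the sample labels. The values are expected counts for each gene symbol, which the authors deposited unnormalized with a column for each mouse. The submitters' processing notes name RSEM 1.2.15, Bowtie2 2.1.0 and the human build hg38, although 22542 of 24054 symbols are current mouse RefSeq symbols. The counting annotation: not given in the sources used here. Per the labels' protocols libraries were strand-specific, and both ribosomal RNA depletion and oligo-dT purification are named. Because RSEM apportions reads that match several genes, counts of close copies are uncertain. Between 17.0% and 19.96% of the values of a library lay over 0.005 from a whole number.

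Expected counts were rounded. Genes were kept by filterByExpr (15905), totals were scaled by TMM, and all 15 libraries entered 1 fit, tested by two-sided quasi-likelihood tests (edgeR 4.0.16, R 4.3.3), with Benjamini-Hochberg adjustment over all genes tested. SE came from the F statistic. The procedure was tested on simulated data. Alternatives were DESeq2 1.42.0, limma-voom (limma 3.58.1), other scalings and filters, covariates, a replicate block, and leaving out each library. All replicate pairs differed beyond sampling noise (chi-square per degree of freedom of at least 10.0). Since the labels call the replicates biological, the spread tested against is that between mice.

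The 38 members, roles and lists were chosen with earlier results of these data known. Values in every library and full statistics are given for up to 6 called members with the largest change per direction and comparison, the 3 with the highest mean CPM, and near-identical pairs. Other called members get their log2 fold change, members not called are given by count, range and median, and up to 4 called genes are named per list. Irf7, members named though not called, and libraries were singled out after their values were seen. One marker, Trac, matched no symbol in the table. Promoters were matched by symbol. One gene of a pathway list is not reported here.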

Additional observations from a re-analysis of the deposited data

Results flagged for a closer look

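In 11 of 114 gene and group combinations 1 library lay far from the other 4, by Dixon's test at the 95% level (critical value 0.71 for 5 samples). Chance flags about 1 in 20, so some of these are likely to be chance.

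In the anti-IL-4Ra group, Ifit3 stood highest in replicate 5 at 101 CPM, with the other 4 libraries at 42.6 to 52.2 CPM. Rtp4 was also highest in replicate 5, at 40.6 CPM, with the other 4 libraries at 22.1 to 27.3 CPM. Trim25 was highest in replicate 4 at 228 CPM, with the other 4 libraries at 177 to 191 CPM. Oas1g was lowest in replicate 2 at 4.13 CPM, with the other 4 libraries at 9.08 to 10.6 CPM. Its value in replicate 2 is within the range of the saline and OVA libraries.

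In the OVA group both cases were in replicate 5, the library with the highest Rn45s share of its group. Mx1 was at 28.4 CPM, with the other 4 libraries at 13.6 to 17.3 CPM, and Dhx58, which encodes the RNA helicase LGP2, was at 15.8 CPM, with the other 4 libraries at 11.2 to 11.6 CPM. The part of Rn45s in these values was not tested.

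In the saline group, replicate 4 was highest for 3 genes. Mx1 was at 8.27 CPM, with the other 4 libraries at 4.88 to 5.76 CPM, Oas2 at 25.6 CPM, with the other 4 libraries at 16.5 to 19.1 CPM, and Sp100 at 114 CPM, with the other 4 libraries at 96.5 to 100.4 CPM. Saline replicate 3 was lowest for Samd9l at 99.7 CPM, with the other 4 libraries at 151 to 170.3 CPM, and for Ifi44 at 22.9 CPM, with the other 4 libraries at 35.6 to 40.4 CPM.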

How the results depend on the processing

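No called value of a member changed sign in any setting, but 37 of the 114 member values did, 24 of them in a fit with a covariate. All 37 were not called in edgeR and at most 0.39 from 0 there. With OVA against saline, for example, Stat2 was at -0.07 with the Rn45s share and -0.15 with endothelial markers, Samd9l at 0.30 with the Rn45s share and Sp100 at -0.26 with endothelial markers. Trim25 was at -0.09 with anti-IL-4Ra against saline with the Rn45s share. With the Rn45s share, 0 members were called lower with OVA against saline (1.67% of all genes) and 0 higher with anti-IL-4Ra against saline (2.02%). With the endothelial marker level, 0 were lower (0.358%) and 0 higher (2.53%) with OVA, and 0 were higher with anti-IL-4Ra against saline (1.01%). DESeq2 called 3 members higher with anti-IL-4Ra against OVA (0.346% of all genes). Without a filter on low counts, 5 members were higher with anti-IL-4Ra against saline in place of 9 (10.3% of all genes in place of 13.9%). The cause was not tested. With the longer spacer 7 promoters held the motif.

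Leaving out 1 library at a time gave 10 to 15 members lower with OVA against saline (14.4 to 22.1% of all genes). It gave 1 to 1 higher in that comparison (14.4 to 19.3%). With anti-IL-4Ra against OVA the fits gave 0 to 0 lower (0.112 to 0.224%) and 0 to 3 higher (0.0874 to 0.169%). With anti-IL-4Ra against saline they gave 0 to 4 lower (7.79 to 15%) and 3 to 11 higher (9.85 to 15.4%). In anti-IL-4Ra against saline, the calls of Stat2 and Isg15 were lost in 10 of the 15 fits, of Oas1a and Parp9 in 9, of Zbp1 in 4, of Oas1g in 3 and of Dtx3l in 1.

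The replicate numbers did not pair the animals: residual correlations of same-numbered libraries ran from -0.55 to 0.35, and 1 of 15 pairs matched best by number. With the replicate block, 10 members were lower and 1 higher with OVA (14.2% and 14.9% of all genes were). In that fit 0 members were called with anti-IL-4Ra against OVA (0.0943% of all genes were lower and 0.0692% higher). With anti-IL-4Ra against saline 3 were higher (9.71% of all genes were). The lowest member count of 43 leaves single low libraries less precise than the rest.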
